A study of Mus musculus with 12 samples.

Results

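The erythroid genes described here were 5 genes taken by name from the 40760 genes of the deposited count table, and all 5 were among the 17418 genes that passed the filter on low counts. They were the adult alpha globins *Hba-a1* and *Hba-a2*, the adult beta globins *Hbb-bs* and *Hbb-bt*, and *Alas2*, the form of 5-aminolevulinate synthase that red cell precursors use to start haem synthesis. The libraries came from Pdgfra+ (CD140a+) cells sorted by flow cytometry from the lungs of young adult male mice on a C57BL/6 background. There were 3 libraries in each of 4 groups, wild type (*WT*) and *Pear1*-/- mice given either vehicle or bleo. Bleo is bleomycin, a drug that damages the lung when delivered through the trachea and is used to model pulmonary fibrosis. The *Pear1*-/- mice carried a whole-body knockout-first allele, in which an inserted cassette traps and ends the transcript, so the deletion was not limited to the sorted cells. The sources used here give neither the number of mice behind a library nor the bleo dose and day of this experiment, so p-values measure the spread between these libraries, which may be technical.

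Haemoglobin carries oxygen in red cells and is built from alpha and beta globin chains that each hold a haem group. Red cell precursors in the bone marrow make globin RNA under erythroid transcription factors such as Gata1 and Klf1, and young red cells in the blood still hold it after they have lost the nucleus, while RNA of the transcription factors and of many membrane proteins is highest in nucleated precursors. Lung is rich in blood, and these 5 genes are best known from red cells and not from Pdgfra+ cells. Which cells their reads came from was not tested. Fewer cells of a type and less RNA per cell cannot be told apart in such bulk libraries, here or in any result that follows.

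The globins lie as neighbouring copies, which bears on how their reads were counted. On GRCm38, with GENCODE M21 gene limits, *Hba-a1* is at chr11:32283511-32284465 and *Hba-a2* at chr11:32296489-32297298, both on the plus strand with 3 exons. *Hbb-bs* is at chr7:103826534-103828096 and *Hbb-bt* at chr7:103812524-103813996, both on the minus strand with 3 exons. *Alas2* is at chrX:150547375-150570638 on the plus strand, with 11 exons in the transcript used. The coding sequences of *Hba-a1* and *Hba-a2* are 426 bases long and differ at 1 base, coding position 381, and those of *Hbb-bs* and *Hbb-bt* are 441 bases long and differ at 1 base, position 417, which makes each pair 99.77% identical. The 60 coding bases that end at the differing base show how little tells the copies apart, with that base in capitals. The first pair covers coding positions 322 to 381 and the second pair positions 358 to 417, both 5′ to 3′ from the GENCODE M21 transcripts.
Hba-a1: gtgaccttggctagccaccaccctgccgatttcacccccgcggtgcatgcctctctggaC
Hba-a2: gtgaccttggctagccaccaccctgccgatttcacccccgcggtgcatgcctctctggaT
Hbb-bs: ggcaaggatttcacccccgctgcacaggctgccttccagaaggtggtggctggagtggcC
Hbb-bt: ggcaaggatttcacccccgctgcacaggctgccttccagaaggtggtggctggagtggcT

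Over whole transcripts, 65.68% of all stretches of 150 bases in the *Hba-a2* transcript occur unchanged in that of *Hba-a1*, and 50.72% of those in the *Hbb-bt* transcript occur in that of *Hbb-bs*. A read pair that lies wholly within shared stretches carries nothing that assigns it to 1 of the copies, and how the authors' counting treated it is not given in the sources used here, so the value of each single globin is uncertain and the sum over a pair is given beside it.

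The alpha globin copies also share their upstream sequence, with an identical run of 247 bases just before the RefSeq start of each. The 117 bases before the GENCODE start of *Hba-a2*, at chr11:32296372-32296488 on the plus strand (RefSeq sequence, GRCm38.p6), are shown. They stand in identical form just before the RefSeq start of *Hba-a1*. That start lies downstream of the GENCODE start of *Hba-a1*, so its copy of this stretch is inside the GENCODE gene limits given above. Capitals mark CCAAT, then the letters CACCC and then the letters TATAA.
Hba-a2 upstream: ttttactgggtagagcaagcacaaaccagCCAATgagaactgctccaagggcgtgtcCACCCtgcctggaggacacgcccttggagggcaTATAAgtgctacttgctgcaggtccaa

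In the 120 bases before the RefSeq start, read on both strands, TATAA and CCAAT were found before all 4 globins and not before *Alas2*, and CACCC before all 5 genes. GATAA was found only before *Alas2*, as TTATC on the gene strand. Among 32851 mouse promoter windows of the same length, 11.85% held TATAA, 21.29% CCAAT, 31.71% CACCC and 10.5% GATAA. For *Hba-a1* and *Hbb-bs* the window before the RefSeq start lies wholly within the GENCODE gene limits given above, and for the other genes in part. These matches describe the sequence and are not binding sites.

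Between 6702948 and 10447101 reads were counted per library, and levels are counts relative to the library total after TMM scaling, on the usual CPM scale. A count of up to 3 was read as undetected, and this floor corresponded to 0.291 to 0.410 CPM. Mesenchymal markers were present, with 12 of 12 above the floor in every library, and leukocyte markers were present too, with 25 or 26 of 26. *Pear1* itself was at 519 to 576 normalized counts in *WT* and 501 to 547 in *Pear1*-/- after vehicle (log2 fold change -0.08, adjusted p = 0.490), and 239 to 266 and 344 to 372 after bleo, where it was higher in *Pear1*-/- (log2 fold change 0.48, adjusted p = 7.54e-05). The deposited counts are per gene and do not separate the exons before the trap from those after it, so the genotypes rest on the labels. *Pear1*-/- vehicle replicate 3 differed from the other libraries of its group by a chi-square per degree of freedom of 4.39 and 4.91, against 1.45 between those. *WT* vehicle replicate 2 stood farthest apart. It differed from the other *WT* vehicle libraries by 21.7 and 22.4, against 1.59 between those 2, and from the *Pear1*-/- vehicle libraries by 1.74 to 2.71. Values of the members that rest on *WT* vehicle are therefore also given without it, as are those of the summed pairs and, where a call or count changed, of the gene lists. Leaving out a library let more genes pass the filter on low counts, 20405 in this case.

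*Hba-a1*, which encodes an alpha chain, was at its highest in *Pear1*-/- bleo and at its lowest in *WT* bleo. Its level was 7.38, 14.1 and 6.60 CPM in the *WT* vehicle replicates 1, 2 and 3, and 13.8, 11.3 and 13.6 in *Pear1*-/- vehicle. It was 2.71, 2.78 and 3.11 in *WT* bleo and 19.9, 16.8 and 17.2 in *Pear1*-/- bleo. Both bleo groups stood outside the range of all 6 vehicle libraries, *WT* bleo below it and *Pear1*-/- bleo above it. *Hba-a1* fell in *WT* after bleo, with a log2 fold change of -1.72 (SE 0.259, adjusted p = 1.28e-05 by edgeR's quasi-likelihood test), and with -1.22 without *WT* vehicle replicate 2 (adjusted p = 2.78e-06). It rose in *Pear1*-/- after bleo by a log2 fold change of 0.47 (SE 0.191, adjusted p = 0.0385), a result that lost significance in 9 of the 12 fits that left out 1 library, all but those without a *WT* vehicle library, with an adjusted p of up to 0.200, and also with DESeq2 (adjusted p = 0.0711) and limma (adjusted p = 0.118). Between genotypes after bleo it was 6.24-fold higher in *Pear1*-/- (log2 fold change 2.64, SE 0.238, adjusted p = 5.03e-08).

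*Hba-a2*, the other alpha globin copy, was counted far less and did not follow *Hba-a1* in *Pear1*-/- bleo. It had 17, 11 and 15 counts in *WT* vehicle (2.32, 1.25 and 1.94 CPM) and 15, 15 and 31 counts in *Pear1*-/- vehicle (1.59, 1.56 and 3.80 CPM). It had 10, 4 and 4 counts in *WT* bleo (1.04, 0.463 and 0.461 CPM) and 3, 2 and 5 in *Pear1*-/- bleo (0.301, 0.194 and 0.533 CPM), where replicates 1 and 2 were at or under the floor. In each genotype every bleo library was below every vehicle library, and the bleo groups overlapped. *Hba-a2* fell in *WT* after bleo, with a log2 fold change of -1.44 (SE 0.520, adjusted p = 0.0201), and with -1.59 without *WT* vehicle replicate 2 (adjusted p = 0.00320). The call in *WT* was lost without *WT* vehicle replicate 1 or *WT* bleo replicate 2 or 3, with an adjusted p of up to 0.0810. It fell in *Pear1*-/- after bleo, with -2.71 (SE 0.551, adjusted p = 0.000315), from 61 counts to 10 over the 3 libraries, a pooled ratio of 6.66 with an exact 95% interval of 3.38 to 14.6 for counting error. Between genotypes after bleo the log2 fold change was -0.95 (SE 0.650, adjusted p = 0.247).

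The split of reads within the alpha pair differed in *Pear1*-/- bleo. *Hba-a2* held 15.8% of the counts of the pair over the 3 *WT* vehicle libraries (exact 95% interval 11.7 to 20.7), 14.8% in *Pear1*-/- vehicle (11.5 to 18.7) and 18.9% in *WT* bleo (11.6 to 28.3). In *Pear1*-/- bleo it held 1.85% (0.888 to 3.37), with 1.49%, 1.14% and 3.01% in the single libraries against 8.15% or more in each of the other 9. The intervals cover counting error only, and copies of 1 molecule made by amplification are not independent. With both copies summed before the fit, the alpha globins fell in *WT* after bleo, with a log2 fold change of -1.68 (adjusted p = 1.83e-06), or -1.30 without *WT* vehicle replicate 2 (adjusted p = 1.33e-07). They had a log2 fold change of 0.27 in *Pear1*-/- after bleo (adjusted p = 0.171), or 0.25 without *WT* vehicle replicate 2 (adjusted p = 0.0498). They were higher in *Pear1*-/- than in *WT* after bleo by 2.37 (adjusted p = 1.74e-08). The summed value is mostly that of *Hba-a1*, as *Hba-a2* held 1.85% of the pair's counts in *Pear1*-/- bleo. For *Pear1*-/- after bleo the sum thus had the opposite sign to *Hba-a2*, which does not re-estimate that gene. Whether the reads of the pair were split in the same way in every library was not tested.

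**Figure D1:**
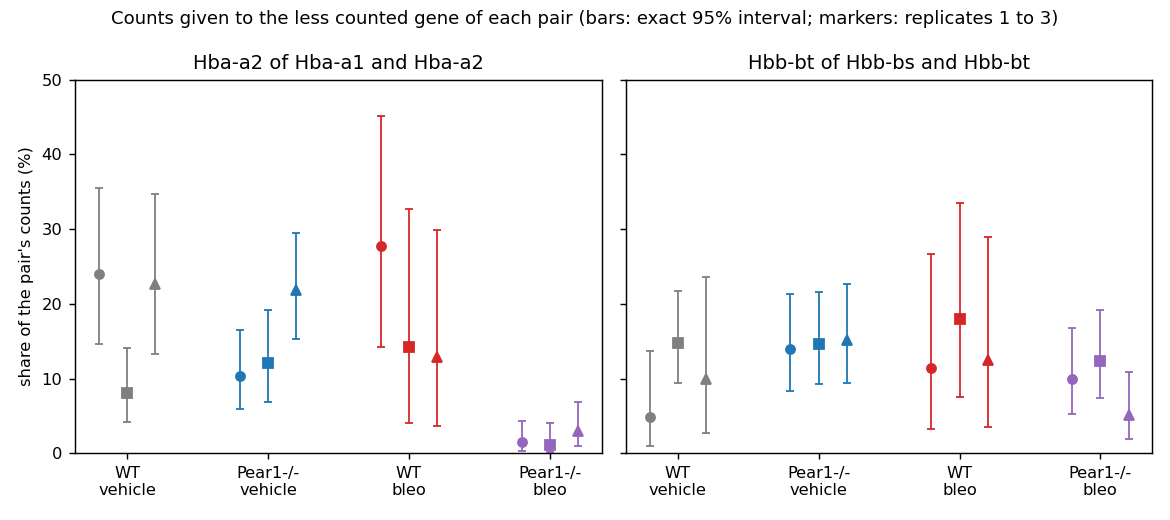
Share of the counts of each globin pair that was given to the less counted copy, in percent, for every library (markers are replicates 1 to 3, bars are exact 95% binomial intervals). The 3 *Pear1*-/- bleo libraries lie at 1.14% to 3.01% for *Hba-a2*, below the other 9, while for *Hbb-bt* the 12 libraries lie at 4.92% to 17.9% and the *Pear1*-/- bleo libraries lie below those of *Pear1*-/- vehicle.

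*Hbb-bs*, which encodes a beta chain, showed the fall in *WT* bleo but no rise in *Pear1*-/- bleo. Its level was 7.93, 13.8 and 4.66 CPM in *WT* vehicle and 11.2, 12.7 and 13.0 in *Pear1*-/- vehicle. It was 3.23, 3.70 and 3.23 in *WT* bleo and 10.8, 11.6 and 11.8 in *Pear1*-/- bleo. *WT* bleo was below every other library, and *Pear1*-/- bleo overlapped *Pear1*-/- vehicle. *Hbb-bs* fell in *WT* after bleo, with a log2 fold change of -1.39 (SE 0.290, adjusted p = 0.000447), and with -0.82 without *WT* vehicle replicate 2 (adjusted p = 0.00123), which is under a 2-fold change. In *Pear1*-/- the log2 fold change after bleo was -0.10 (SE 0.231, adjusted p = 0.717). After bleo it was 3.37-fold higher in *Pear1*-/- than in *WT* (log2 fold change 1.75, SE 0.276, adjusted p = 6.12e-05).

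*Hbb-bt*, the second beta globin copy, had few reads and passed edgeR's quasi-likelihood test in none of the 5 comparisons in the fit of all 12 libraries. It had 3, 21 and 4 counts in *WT* vehicle (0.410, 2.39 and 0.518 CPM) and 17, 21 and 19 in *Pear1*-/- vehicle (1.81, 2.18 and 2.33 CPM). It had 4, 7 and 4 counts in *WT* bleo (0.416, 0.810 and 0.461 CPM) and 12, 17 and 6 in *Pear1*-/- bleo (1.20, 1.65 and 0.640 CPM). The high *WT* vehicle library was again replicate 2, and in *Pear1*-/- every bleo library was below every vehicle library. The log2 fold change after bleo was -1.02 in *WT* (SE 0.626, adjusted p = 0.157), or 0.32 without *WT* vehicle replicate 2 (adjusted p = 0.678), and -0.83 in *Pear1*-/- (SE 0.506, adjusted p = 0.158). The value in *Pear1*-/- passed in a fit of only the 6 libraries compared (-0.84, adjusted p = 0.0297) and in the fit without *WT* vehicle replicate 2 (-0.85, adjusted p = 0.0337). The log2 fold change between genotypes after bleo was 1.05 (SE 0.608, adjusted p = 0.168). *Hbb-bt* took 11.5% of the counts of the beta pair in *WT* and 14.6% in *Pear1*-/- after vehicle, and 14.2% and 9.36% after bleo, with intervals that all overlapped, although each *Pear1*-/- bleo library, at 5.13% to 12.4%, was below each *Pear1*-/- vehicle library, at 13.9% to 15.2%. The beta globins summed fell in *WT* after bleo, with a log2 fold change of -1.35 (adjusted p = 0.00170), or -0.70 without *WT* vehicle replicate 2 (adjusted p = 0.00332), which is under a 2-fold change. They had a log2 fold change of -0.19 in *Pear1*-/- after bleo (adjusted p = 0.536) and were higher in *Pear1*-/- than in *WT* after bleo by 1.67 (adjusted p = 0.000385).

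*Alas2*, the enzyme of haem synthesis, had its lowest mean in *Pear1*-/- bleo, as *Hba-a2* did, and its bleo groups overlapped. It had 5, 19 and 6 counts in *WT* vehicle (0.683, 2.16 and 0.777 CPM) and 20, 21 and 25 in *Pear1*-/- vehicle (2.13, 2.18 and 3.06 CPM). It had 14, 12 and 5 counts in *WT* bleo (1.46, 1.39 and 0.576 CPM) and 9, 8 and 5 in *Pear1*-/- bleo (0.903, 0.775 and 0.533 CPM). Every *Pear1*-/- bleo library was below every *Pear1*-/- vehicle library, while *WT* bleo lay within the range of *WT* vehicle except for 1 lower library. *Alas2* fell in *Pear1*-/- after bleo, with a log2 fold change of -1.71 (SE 0.470, adjusted p = 0.00400). In *WT* the log2 fold change was -0.11 (SE 0.491, adjusted p = 0.856), and 0.71 without *WT* vehicle replicate 2 (adjusted p = 0.222). Between genotypes after bleo it was -0.62 (SE 0.513, adjusted p = 0.339).

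**Figure D2:**
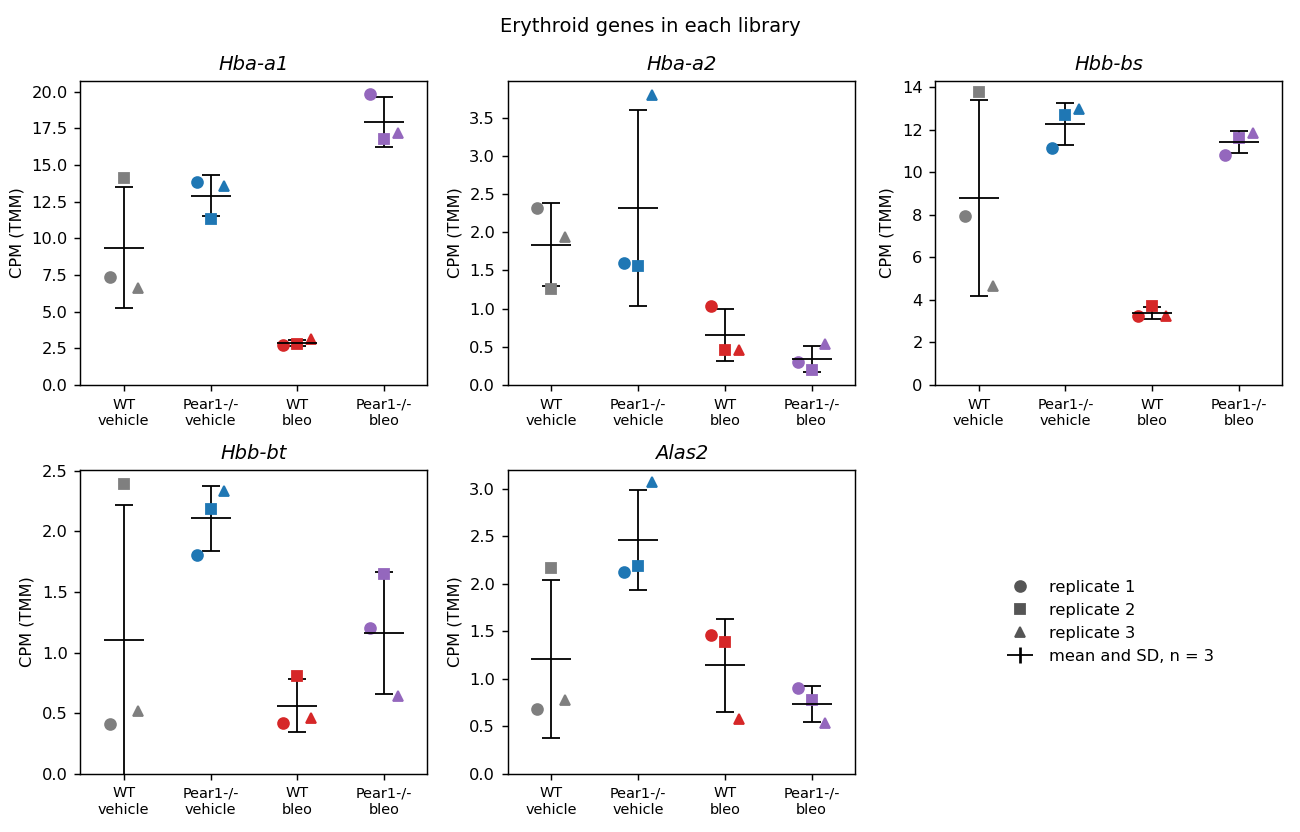
Level of the 5 erythroid genes in each library, in CPM after TMM scaling, by group (markers are replicates 1 to 3, black lines the mean and SD of 3 libraries). *WT* bleo lies at 2.71 to 3.11 CPM for *Hba-a1* and 3.23 to 3.70 for *Hbb-bs*, below every other library, and *WT* vehicle replicate 2 is the highest *WT* vehicle library for all genes but *Hba-a2*.

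Set against each other per length of exon sequence, *Hba-a1* and *Hbb-bs* had similar means in both vehicle groups, while after bleo *Hba-a1* was the lower of them in *WT* and the higher in *Pear1*-/-. Per kilobase of exon, *Hba-a1* was at 11.5 ± 5.08 CPM (mean ± SD, n = 3) in *WT* vehicle and *Hbb-bs* at 11.4 ± 6.003, and in *Pear1*-/- vehicle they were at 15.9 ± 1.70 and 15.99 ± 1.28. In *WT* bleo *Hba-a1* was at 3.53 ± 0.267 and *Hbb-bs* at 4.41 ± 0.356. In *Pear1*-/- bleo *Hba-a1* was at 22.1 ± 2.09 and *Hbb-bs* at 14.9 ± 0.682. The other 3 genes were lower in every group, with means of 0.514 to 3.47 for *Hba-a2*, 0.800 to 2.996 for *Hbb-bt* and 0.307 to 1.02 for *Alas2*, whose spreads overlap in several groups.

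After bleo in *WT*, 3 of the 5 genes were called, meaning an adjusted p under 0.05 and a change above 2-fold, and all 3 were lower: *Hba-a1*, *Hba-a2* and *Hbb-bs*. Over all genes tested, 23.3% were called lower in this comparison, and 67.9% passed the test in either direction. The same 3 genes had groups that did not overlap, beside 36.2% of all genes that were lower without overlap. The median log2 fold change of the 5 genes was that of *Hbb-bs*, -1.39, and the median of all genes was -0.07. Without *WT* vehicle replicate 2, 2 of the 5 were called, *Hba-a1* and *Hba-a2*, as were 9184 of all 20405 genes tested, in either direction.

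After bleo in *Pear1*-/-, 2 of the 5 genes were called, both lower, *Hba-a2* and *Alas2*, beside 19.3% of all genes called lower. *Hba-a1* passed the test in the other direction without reaching 2-fold, beside 62.2% of all genes that passed. Groups did not overlap for 4 of the 5, *Hba-a1* higher and *Hba-a2*, *Hbb-bt* and *Alas2* lower, beside 70.9% of all genes in either direction. With each globin pair summed, *Alas2* was the only one called. The median log2 fold change of the 5 was -0.83, and that of all genes -0.05.

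After vehicle alone, none of the 5 genes passed the test between genotypes in edgeR's quasi-likelihood fit, beside 7.24% of all genes that passed and 3.32% that were called. All 5 had a higher mean in *Pear1*-/-, and groups overlapped for all 5, beside 19.1% of all genes that did not overlap. The log2 fold changes were 0.44 for *Hba-a1* (SE 0.209, adjusted p = 0.156), 0.33 for *Hba-a2* (SE 0.444, adjusted p = 0.632), 0.46 for *Hbb-bs* (SE 0.244, adjusted p = 0.202), 0.87 for *Hbb-bt* (SE 0.522, adjusted p = 0.259) and 0.98 for *Alas2* (SE 0.450, adjusted p = 0.147). *Hba-a1* and *Alas2*, 2 of the 5, had an unadjusted p under 0.05, at 0.0483 and 0.0434, and 0 of the 5 were called by DESeq2 or by limma either. Without the filter on low counts *Hba-a1* and *Hbb-bs* passed the edgeR test, at 0.53 and 0.54 (adjusted p = 0.0139 and 0.0161), without reaching 2-fold. This comparison turned on *WT* vehicle replicate 2. Without it *Hba-a1* rose by 0.96 on the log2 scale (adjusted p = 3.92e-06), *Hbb-bs* by 1.04 (adjusted p = 3.31e-06), *Hbb-bt* by 2.22 (adjusted p = 0.000440) and *Alas2* by 1.79 (adjusted p = 0.00104), while *Hba-a2* stood at 0.17 (adjusted p = 0.744). With the copies summed, the alpha pair was at 0.43 (adjusted p = 0.116) and the beta pair at 0.52 (adjusted p = 0.199) over all libraries, and without that library at 0.81 (adjusted p = 2.12e-05) and 1.17 (adjusted p = 1.29e-07). Of the single genes, *Hbb-bs*, *Hbb-bt* and *Alas2* were then called, 3 of the 5, and so were 4931 of all 20405 genes tested, against 578 with the library in.

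After bleo between genotypes, 2 of the 5 genes were called, *Hba-a1* and *Hbb-bs*, both higher in *Pear1*-/-, beside 6.22% of all genes called higher and 46.1% that passed the test in either direction. The same 2 were the ones whose groups did not overlap, beside 30.4% of all genes higher without overlap. Neither was changed by leaving out any 1 of the 12 libraries: the log2 fold change stayed at 2.55 to 2.69 for *Hba-a1* and 1.71 to 1.81 for *Hbb-bs*. The median of the 5 genes was 1.05, and that of all genes -0.01.

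The response to bleo differed between genotypes for the same 2 genes, beside 8.53% of all genes called higher for this difference of differences and 37.1% that passed its test. It was 2.20 on the log2 scale for *Hba-a1* (SE 0.323, adjusted p = 3.79e-05) and 1.29 for *Hbb-bs* (SE 0.372, adjusted p = 0.0119). Without *WT* vehicle replicate 2 it was 1.67 for *Hba-a1* (adjusted p = 1.30e-07) and 0.70 for *Hbb-bs* (adjusted p = 0.0261), which is under a 2-fold change and ends its call. The call for *Hbb-bs* was also lost without *Pear1*-/- vehicle replicate 1 or *WT* bleo replicate 1 or 3, with an adjusted p of up to 0.0620, and with limma (adjusted p = 0.0656). With the copies summed the difference was 1.94 for the alpha pair (adjusted p = 2.11e-05) and 1.16 for the beta pair (adjusted p = 0.0383), and without *WT* vehicle replicate 2 it was 1.55 (adjusted p = 1.54e-07) and 0.50 (adjusted p = 0.102). For *Alas2* it was -1.60 (SE 0.684, adjusted p = 0.0745), and -2.43 without that library (adjusted p = 0.00160) or -1.96 without *WT* bleo replicate 3 (adjusted p = 0.0441). *Hba-a2* was at -1.27 (SE 0.786, adjusted p = 0.219), or -1.13 without *WT* vehicle replicate 2 (adjusted p = 0.212). *Hbb-bt* was at 0.18 (SE 0.777, adjusted p = 0.883), and its direction turned without that library, to -1.17 (adjusted p = 0.224). The 5 comparisons share groups, so their values are not independent of each other.

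**Figure D3:**
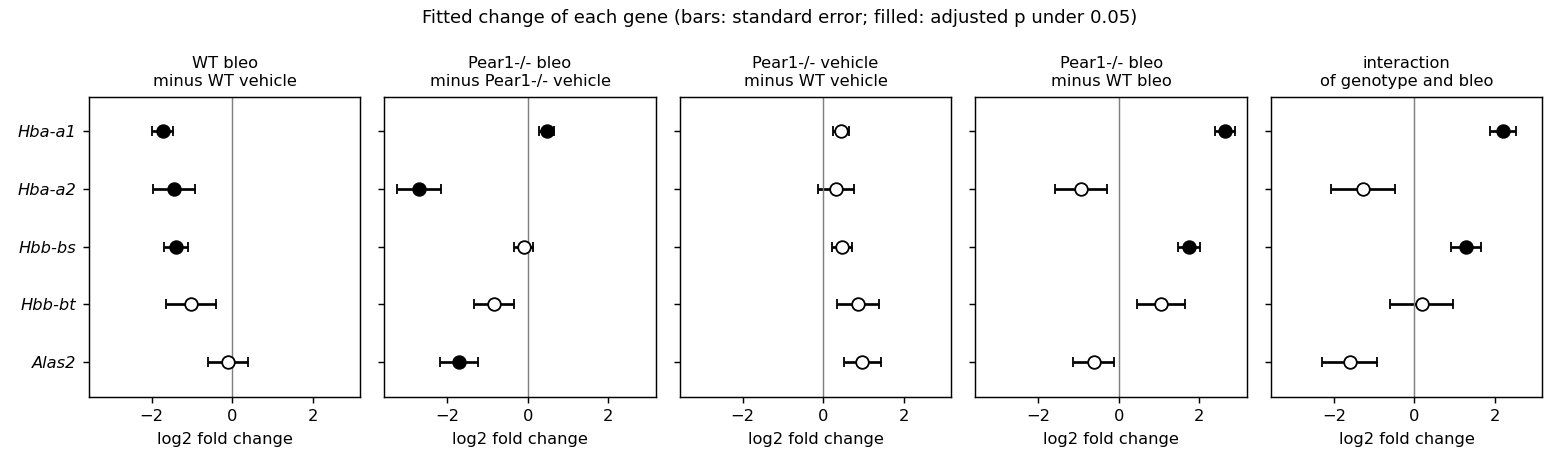
Log2 fold change of the 5 genes in each comparison from the fit over all 12 libraries (points are estimates, bars the standard error, filled points have an adjusted p under 0.05). *Hba-a1* and *Hbb-bs* are left of 0 for *WT* bleo at -1.72 and -1.39 and right of 0 for the genotypes after bleo at 2.64 and 1.75.

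Summed over the 4 globins, the level after vehicle was 18.0, 31.5 and 13.7 CPM in *WT* and 28.4, 27.8 and 32.7 in *Pear1*-/-. After bleo it was 7.39, 7.75 and 7.26 in *WT* and 32.2, 30.2 and 30.2 in *Pear1*-/-. *Pear1*-/- bleo thus lay within the range of *Pear1*-/- vehicle, and *WT* bleo lay below all other libraries. These sums rest on 63 to 321 reads per library.

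The summed level of the other erythroid markers was lower after bleo in both genotypes, whereas the globin sum was lower in *WT* bleo and within the vehicle range in *Pear1*-/- bleo. Of 8 further markers listed for red cells and their precursors, 7 were in the table, and their summed level after vehicle was 5.69 to 11.2 CPM in *WT* and 3.06 to 3.85 in *Pear1*-/-, and after bleo 0.416 to 1.04 and 0.678 to 1.10. All 7 were above the floor in each *WT* vehicle library, 3 to 5 in each *Pear1*-/- vehicle library, and at most 1 in any bleo library. *Slc4a1*, the band 3 anion exchanger of the red cell membrane, had 8 to 11 counts in *WT* vehicle and 8 to 14 in *Pear1*-/- vehicle and was at 0 in all 6 bleo libraries, which puts it at least 3.41-fold lower after bleo in *WT* and at least 4.19-fold lower in *Pear1*-/- against the floor of 3 counts per library (at least 3.76-fold in *WT* without *WT* vehicle replicate 2). The 2 defining transcription factors were near the floor, *Gata1* with 6 to 11 counts in *WT* vehicle and 1 to 3 in *Pear1*-/- vehicle, and *Klf1* with 7 to 9 and 2 to 6, and neither exceeded 3 counts in a bleo library. Not every marker was lower in *Pear1*-/- bleo: *Gata1* and *Hemgn* had 5 and 3 counts over the *Pear1*-/- vehicle libraries and 7 each over those of *Pear1*-/- bleo, at or under the floor in all 6. *WT* vehicle replicate 2, which had the highest globin level of its group, had the lowest summed level of these 7 markers in its group. The *Pear1*-/- bleo libraries held globin reads at the level of *Pear1*-/- vehicle while each of these markers was at or under the floor.

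**Figure D4:**
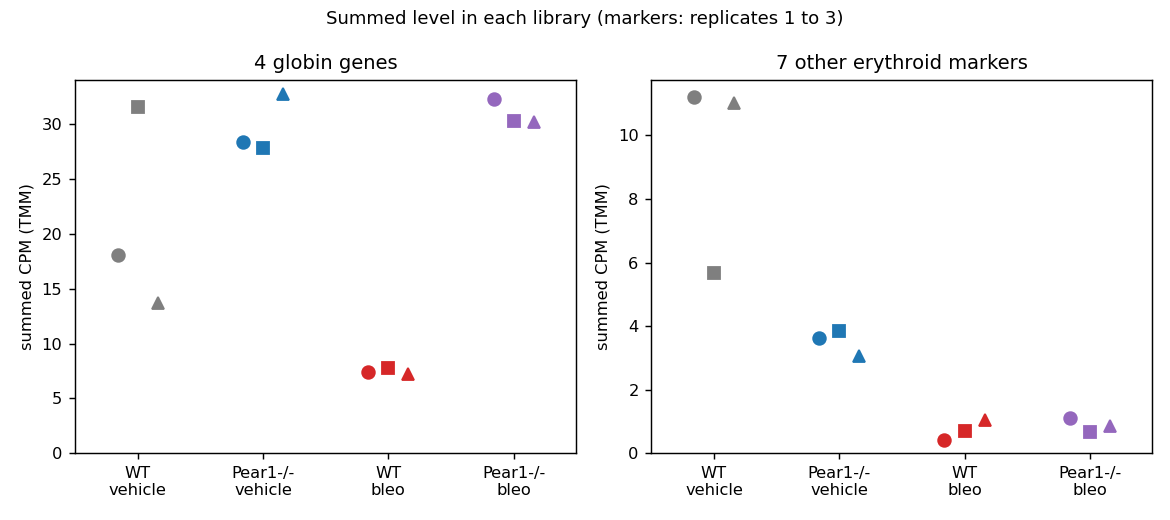
Summed level of the 4 globins (left) and of the 7 other erythroid markers (right) in each library, in CPM after TMM scaling (markers are replicates 1 to 3). The globins are lowest in *WT* bleo at 7.26 to 7.75 CPM, and the other markers are lowest in both bleo groups at 0.416 to 1.10.

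Markers of other cells moved between the same groups. The summed level of 26 leukocyte markers after vehicle was 3838 to 6207 CPM in *WT* and 6054 to 6799 in *Pear1*-/-, and after bleo 17680 to 17946 and 8449 to 8709, *WT* first. That list did not move as one either: in *WT* 16 of the 26 rose and 7 fell after bleo (17 and 6 without *WT* vehicle replicate 2), with macrophage genes such as *Lyz2* and *Cd68* rising by 2.69 and 2.90 on the log2 scale and the neutrophil genes *S100a8* and *S100a9* at -3.12 and -2.68 (adjusted p = 0.000285 and 0.00178), or -2.28 and -1.63 without that library, and in *Pear1*-/- 12 rose and 10 fell. In *Pear1*-/- it was 12 and 12 without *WT* vehicle replicate 2. The summed level of 12 platelet and megakaryocyte markers was 52.4 to 54.4 and 47.1 to 50.3 CPM after vehicle and 82.2 to 85.8 and 45.6 to 47.4 after bleo, again *WT* first. Of this list 9 of the 10 tested genes fell after bleo in *WT*, and *Pf4* rose by 2.67 on the log2 scale (adjusted p = 2.24e-13). In *Pear1*-/- 9 of the 10 fell as well, and *Pf4* rose by 1.55 (adjusted p = 1.94e-09). Beside the counts of each list in this paragraph, 67.9% of all genes passed after bleo in *WT* and 62.2% in *Pear1*-/-, in either direction. For endothelial, epithelial and mesenchymal markers the summed level after vehicle was 710 to 901, 4787 to 6838 and 17697 to 19477 CPM in *WT* and 868 to 988, 6490 to 7542 and 19277 to 20081 in *Pear1*-/-. After bleo these were 444 to 469, 1826 to 1860 and 14538 to 14668 in *WT* and 459 to 478, 783 to 795 and 36389 to 37480 in *Pear1*-/-. The mesenchymal sum in *Pear1*-/- bleo was high through a few abundant genes, *Col1a1*, *Col1a2*, *Col3a1* and *Fn1*, which rose by 2.18, 1.53, 0.98 and 4.36 on the log2 scale, whereas 7 of the 12 genes fell and the median log2 fold change of the list was -0.92. *Pdgfra*, the gene of the sort, fell after bleo, with log2 fold changes of -1.74 in *WT* and -0.80 in *Pear1*-/-, and *Ptprc*, which encodes CD45 of leukocytes, rose by 1.22 in *WT*. The part of these in the globin levels was not tested.

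The red cell membrane and skeleton genes, 10 of 15 of which passed the filter, mostly fell after bleo in both genotypes, unlike *Hba-a1* and *Hbb-bs* in *Pear1*-/-. In *WT* 8 fell and 2 did not pass the test, beside 67.9% of all genes that passed in either direction, with a median log2 fold change of -1.88 beside -0.07 for all genes, or -1.83 with *Slc4a1* at its bound. In *Pear1*-/- 9 fell and 1 did not pass, beside 62.2%, with a median of -1.69 beside -0.05, or -1.58 with the genes at 0 at their bounds. Without *WT* vehicle replicate 2 all 10 fell there, beside 67.9% of all genes that passed in that fit. Among them *Sptb*, which encodes a spectrin of the membrane skeleton, fell, with log2 fold changes of -1.88 in *WT* and -1.78 in *Pear1*-/- (adjusted p = 0.00221 and 0.0105).

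Several genes of that list are also used by other cells. *Aqp1*, a water channel of red cells and of endothelium, fell in both genotypes, with log2 fold changes of -1.73 in *WT* and -1.56 in *Pear1*-/-, as did *Tmod1*, with -1.88 and -1.61, and *Gypc*, glycophorin C, with -1.03 and -0.46. *Kel*, the Kell blood group antigen, fell in *WT*, from 42 counts over the 3 vehicle libraries to 1 over the 3 bleo libraries, a pooled ratio of 47.5 with an exact 95% counting interval of 8.07 to 1919, and was at 0 in *Pear1*-/- bleo, at least 2.53-fold lower. *Rhag*, a membrane protein of the Rh complex, fell in *WT* from 55 counts to 2, a pooled ratio of 31.1 (8.20 to 263). It had 15 and 3 counts in *Pear1*-/-, a ratio of 5.46 (1.54 to 29.4) that did not pass the edgeR test over all libraries (adjusted p = 0.0607). Without *WT* vehicle replicate 2 it passed in *Pear1*-/- (log2 fold change -2.31, adjusted p = 0.0179). *Epb41*, protein 4.1, was at -0.11 in *WT* (adjusted p = 0.377) and fell by 0.64 in *Pear1*-/-. *Ermap* was at 0.39 in *WT* (adjusted p = 0.164) and fell by 1.04 in *Pear1*-/-. After vehicle *Ermap* alone of the 10 passed between genotypes, lower in *Pear1*-/- (log2 fold change -1.40, adjusted p = 0.0272), beside 7.24% of all genes that passed. After bleo *Gypc* and *Aqp1* were higher in *Pear1*-/- by 0.80 and 0.44, *Ermap* and *Epb41* were lower there, with -2.82 and -0.38, and 6 did not pass. For the difference in response *Gypc* was higher by 0.57, *Epb41* and *Ermap* were lower with -0.53 and -1.43, and 7 did not pass. Of all genes, 46.1% passed between genotypes after bleo and 37.1% for the difference in response. The list's median log2 fold change was -0.88 between genotypes after vehicle, -0.40 after bleo, or 0 with the genes at 0 in *Pear1*-/- bleo at their bounds, and -0.03 for the difference in response. With *WT* vehicle replicate 2 left out, 3 of the 10 were higher and 6 lower in *Pear1*-/- after vehicle, with a median of -1.08, *Ermap* was at -1.56 (adjusted p = 2.88e-07), and 55.3% of all genes passed that test. After bleo in *WT* 8 fell without it, as with it.

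Of 10 erythroid transcription factors, 7 passed the filter, and most of these also work in other blood cells. After bleo in *WT*, *Lmo2* rose by 1.87 on the log2 scale, *Bcl11a* by 1.10, *Ikzf1* by 0.90 and *Ldb1* by 0.85, *Nfe2* fell by 1.30, and *Tal1* and *Zfpm1* were at -0.83 and 0.31 (adjusted p = 0.173 and 0.413). In *Pear1*-/- *Bcl11a* rose by 1.42 and *Ldb1* by 0.35, *Nfe2* fell by 0.84, and *Tal1*, *Zfpm1*, *Ikzf1* and *Lmo2* were at 1.59, -0.36, 0.07 and 0.05 (adjusted p = 0.0510, 0.325, 0.392 and 0.752). Between genotypes after bleo *Lmo2*, *Ikzf1* and *Ldb1* were lower in *Pear1*-/-, with log2 fold changes of -1.70, -0.67 and -0.40, and *Nfe2* was higher by 0.64. After vehicle only *Tal1* passed, lower in *Pear1*-/- by a log2 fold change of -2.65 (adjusted p = 0.0331), beside 7.24% of all genes. It had 6 to 31 counts in the *WT* vehicle libraries and 1 to 6 in those of *Pear1*-/- vehicle, near the floor of 3. Every value of *Tal1* that uses *Pear1*-/- vehicle rests on these few reads. The list's median log2 fold change was 0.85 in *WT* after bleo, 0.07 in *Pear1*-/- after bleo, 0.12 between genotypes after vehicle, -0.27 after bleo and -0.50 for the difference in response, where *Tal1* was higher with 2.42 and *Lmo2*, *Ikzf1* and *Ldb1* were lower with -1.82, -0.83 and -0.50. Of all genes, 67.9% passed in *WT* and 62.2% in *Pear1*-/- after bleo, 46.1% between genotypes after bleo and 37.1% for the difference in response. Without *WT* vehicle replicate 2 *Tal1* was at -3.05 after vehicle (adjusted p = 6.36e-07). It then passed after bleo at -1.23 in *WT* (adjusted p = 0.00331) and 1.58 in *Pear1*-/- (adjusted p = 0.00739). In that fit 2 of the 7 were higher and 2 lower in *Pear1*-/- after vehicle, beside 55.3% of all genes that passed.

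Other globins were also measured, among them chains of embryonic red cells and globins of other tissues. Of 13 such symbols 8 were in the table, and 2 passed the filter, neither of them a red cell globin. *Cygb*, cytoglobin, a globin of fibroblast-like cells, fell after bleo, with log2 fold changes of -1.60 in *WT* and -1.83 in *Pear1*-/- (adjusted p = 2.41e-11 and 5.66e-12), and its genotypes after bleo were at 0.08 (adjusted p = 0.500). *Ngb*, neuroglobin, fell too, with -4.12 and -3.30, and was 0.82 higher in *Pear1*-/- after bleo (adjusted p = 0.0420). After vehicle *Cygb* was higher in *Pear1*-/- by 0.30 (adjusted p = 0.04996), or by 0.53 without *WT* vehicle replicate 2 (adjusted p = 6.78e-11), and *Ngb* was at 0.004 (adjusted p = 0.986).

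In haem synthesis, whose 13 listed genes include *Alas2* and were all tested, 4 rose and 3 fell after bleo in *WT*, and 5 rose and 2 fell in *Pear1*-/-. Without *WT* vehicle replicate 2 it was 6 and 2, and 5 and 3, beside 76.4% and 67.9% of all genes that passed. Over all libraries 67.9% of all genes passed in *WT* and 62.2% in *Pear1*-/-. The list had medians of 0.11 and -0.01 beside -0.07 and -0.05 for all genes. The 3 smallest adjusted p-values belonged to the same genes in both, *Tmem14c*, which moves a haem precursor into mitochondria (1.38 in *WT* and 1.25 in *Pear1*-/- on the log2 scale), *Slc25a37*, mitoferrin, the iron importer of mitochondria (0.95 and 0.63), and *Alas1*, the form of the first enzyme used outside red cells (0.81 and 0.34). *Alas1* thus rose in *Pear1*-/-, where *Alas2* fell. Between genotypes after bleo 5 were higher and 3 lower in *Pear1*-/-, beside 46.1% of all genes that passed, with a median of -0.09. They were led by *Cpox* at -1.32 (adjusted p = 4.26e-05), *Fech*, ferrochelatase, at 0.48 and *Alad* at 0.61. After vehicle *Cpox* alone passed, at -0.74 (adjusted p = 0.0458), beside 7.24% of all genes. Next came *Slc25a37* at 0.32 and *Ppox* at 0.22 (adjusted p = 0.0997 and 0.132), and the median was 0.14. Without *WT* vehicle replicate 2, 9 were higher and 1 lower after vehicle, beside 55.3% of all genes that passed. The lower one was *Cpox* at -0.93 (adjusted p = 1.06e-05). For the difference in response 4 were higher and 3 lower, beside 37.1% of all genes that passed, led by *Alas1* at -0.48, *Fech* at 0.45 and *Slc25a38* at -0.55. Without that library 2 were higher and 6 lower, beside 46.4%.

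Genes that handle haem and iron outside red cells, 16 of 18 of which were tested, mostly rose in both genotypes after bleo: 12 rose and 1 fell in *WT* with a median of 0.88, beside -0.07 for all genes and 67.9% of all genes that passed in either direction, and 11 rose and none fell in *Pear1*-/- with a median of 0.38, beside -0.05 and 62.2%. Without *WT* vehicle replicate 2, 11 rose and 3 fell in *Pear1*-/-, beside 67.9% of all genes that passed in that fit. Over all libraries the smallest adjusted p-values in *WT* were those of the ferritin chains *Ftl1* (1.34) and *Fth1* (0.97) and of *Blvrb*, a biliverdin reductase (1.57). In *Pear1*-/- they were those of *Slc40a1*, ferroportin, the iron exporter (2.49), *Slc39a14* (1.07) and *Blvra* (0.92). Between genotypes after bleo 4 were higher and 8 lower in *Pear1*-/-, beside 46.1% of all genes that passed, with a median of -0.28. They were led by *Cp*, ceruloplasmin (0.93), *Slc40a1* (0.93) and *Ftl1* (-0.68). For the difference in response 3 were higher and 6 lower, beside 37.1% of all genes that passed, led by *Cp* (0.85), *Fth1* (-0.72) and *Ftl1* (-0.79). Without *WT* vehicle replicate 2 it was 2 and 7, beside 46.4%. After vehicle none of the 16 passed the edgeR test, though 3 had an unadjusted p under 0.05, the closest being *Slc11a1*, *Blvrb* and *Hp* at 0.38, 0.23 and 0.42 (adjusted p = 0.0800, 0.142 and 0.146). In the fit that left out *WT* vehicle replicate 2, 8 of the 16 were higher in *Pear1*-/- after vehicle, beside 55.3% of all genes that passed in either direction.

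Other genes known from red cells, 9 of 16 of which were tested, are summarised by their counts: 4 rose and 2 fell after bleo in *WT*, 3 rose and none fell in *Pear1*-/-, 1 was lower in *Pear1*-/- after vehicle, and 5 were higher and 2 lower in *Pear1*-/- after bleo. Of all genes, 67.9%, 62.2%, 7.24% and 46.1% passed in these 4 comparisons. The list had medians of 0.34, 0.07, -0.09 and 0.26. After vehicle 3 were higher and 2 lower in *Pear1*-/- once *WT* vehicle replicate 2 was left out, beside 55.3% of all genes that passed in that fit.

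Over the 12 libraries, the genes whose pattern was closest to the mean profile of the 4 globins were *Plekhf1*, *Igkv14-111*, *Ctse*, *Magee1* and *Aebp1*, with a root mean square difference of 0.134, 0.134, 0.141, 0.165 and 0.169 on the centred log2 CPM scale. The members themselves lay farther from their own mean, at 0.285 for *Hbb-bs*, 0.451 for *Hbb-bt*, 0.556 for *Hba-a1* and 0.885 for *Hba-a2*, and *Alas2* lay at 0.634. For *Ctse*, cathepsin E, the normalized counts after vehicle were 153 ± 63.3 in *WT* and 244 ± 23.2 in *Pear1*-/-, and after bleo 67.9 ± 3.94 and 164 ± 9.60 (mean ± SD, n = 3). This likeness is a description over libraries that share depth and group, and it carries no test.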

How the data were processed

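RNA-seq was made from sorted lung cells with a SMART-Seq low-input kit in 12 libraries, and read pairs had been aligned by the authors with HISAT2 (mouse genome GRCm38). The counting program and its treatment of reads shared by gene copies are not given in the sources used here. The authors deposited whole-number counts of reads per gene without normalization, which the tests used. The second deposited table holds a signal on a linear scale, each count divided by a size factor of its library, which gave the normalized counts. The kit does not mark strand.

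Counts were fitted in edgeR 4.0.16 (R 4.3.3) with TMM scaling, filterByExpr, 1 mean per group over all 12 libraries and the quasi-likelihood test with robust estimation; this is a count model in place of the limma test that the study names, which was run as an alternative. P-values were adjusted by Benjamini-Hochberg over 17418 genes. A gene was called at an adjusted p under 0.05 and a change above 2-fold. "Rose" and "fell" refer to the adjusted p alone. Counts of 3 or fewer were taken as not detected. Where 1 symbol stood for several rows (38 symbols), the row with most counts was used. Exact 95% intervals are binomial. The code was tested on simulated data with known changes.

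The members and the gene lists were chosen with earlier results of these data known. Named were the 5 members, every tested gene of the lists of other globins, erythroid transcription factors and red cell membrane, the 3 smallest adjusted p-values per comparison in haem synthesis and in haem and iron handling, the 5 genes nearest to the mean globin profile, and *Pdgfra*, *Ptprc* and *Pear1*. Other genes named among the marker lists (*Slc4a1*, *Gata1*, *Klf1*, *Hemgn*, *Pf4*, *Lyz2*, *Cd68*, *S100a8*, *S100a9*, *Col1a1*, *Col1a2*, *Col3a1*, *Fn1*) were picked after their values were seen. Some genes of these lists enter the counts and medians but are not reported here by name. Alternatives covered scaling (DESeq2 1.42.0 size factors, library totals), the filter, the tool (DESeq2, limma 3.58.1 on log2 of the normalized value plus 1), the replicate block, the copies summed and each library left out; edgeR without robust estimation, and the summed pairs and gene lists without *WT* vehicle replicate 2, were added after seeing the data.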

Additional observations from a re-analysis of the deposited data

Results flagged for a closer look

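The response to bleo differed between *WT* and *Pear1*-/- for *Hba-a1* by 2.20 on the log2 scale, by a test of the difference itself, with -1.72 in *WT* and 0.47 in *Pear1*-/-. The value in *Pear1*-/- passed the test in the fit over all libraries (adjusted p = 0.0385) but not in 9 of the 12 fits that left out 1 library, nor with DESeq2, limma or the copies summed, where it was 0.27 (adjusted p = 0.171), while the difference with the copies summed was 1.94 (adjusted p = 2.11e-05). Without *WT* vehicle replicate 2 the value of *Hba-a1* in *Pear1*-/- was 0.46 (adjusted p = 0.000585), and 0.25 with the copies summed (adjusted p = 0.0498). The response differed for *Hbb-bs* by 1.29, with -1.39 in *WT* and -0.10 in *Pear1*-/-. This was 0.70 without *WT* vehicle replicate 2 (adjusted p = 0.0261), and it did not pass without *Pear1*-/- vehicle replicate 1 or *WT* bleo replicate 1 or 3 (adjusted p up to 0.0620) or with limma (adjusted p = 0.0656). Both are differences between the groups in the effect of the same treatment, and their causes were not tested.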

How the results depend on the processing

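The 25 member log2 fold changes were recomputed under 516 alternatives in all, of which 471 kept direction and side of the threshold, 20 lost and 13 gained significance and 12 reversed. The reversals of *Hba-a2* with the copies summed set the pair's value in place of its own. Depth limits *Hba-a2*, *Hbb-bt* and *Alas2*, whose libraries hold 2 to 31 counts. The cause of a change was not tested unless the setting shows it.

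Summing each pair of globin copies gives both copies the pair's value, and then 4 members were called in *WT* after bleo, 1 in *Pear1*-/- after bleo, 4 between genotypes after bleo and 4 for the difference in response. *Hba-a2* stood at 0.27, 2.37 and 1.94 in the last 3 of these and *Hbb-bt* became called in all but *Pear1*-/- after bleo, at -1.35, 1.67 and 1.16. These are values of pairs in which *Hba-a1* and *Hbb-bs* hold most counts, so they do not re-estimate *Hba-a2* or *Hbb-bt*. Without *WT* vehicle replicate 2 as well, the beta pair was at 0.50 for the difference in response (adjusted p = 0.102). With limma, 1 member was called for the difference in response, and *Hbb-bt* stood at -0.35 there. Without the filter on low counts *Hba-a1* and *Hbb-bs* passed between genotypes after vehicle, and *Alas2* in *WT* after bleo was at 0.0069.

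Leaving out 1 library in turn gave 2 to 3 members called in *WT* after bleo, 0 to 3 between genotypes after vehicle (3 without *WT* vehicle replicate 2) and 1 to 2 for the difference in response (1 without *Pear1*-/- vehicle replicate 1 or *WT* bleo replicate 1, where *Hbb-bs* was lost). Its log2 fold changes ranged from -1.38 to 0.32 for *Hbb-bt* and from -0.37 to 0.71 for *Alas2* in *WT* after bleo, from -0.16 to 0.61 for *Hba-a2* between genotypes after vehicle, and from -1.17 to 0.55 for *Hbb-bt* in the difference in response. The reversals were none of them past the threshold, and the positive values of *Alas2* and *Hbb-bt* in *WT* came without *WT* vehicle replicate 2, at 0.71 and 0.32, and for *Alas2* without *WT* bleo replicate 3, at 0.24. *Hbb-bt* reversed in the difference in response at -1.17 without *WT* vehicle replicate 2, -0.05 without *WT* bleo replicate 1 and -0.20 without *Pear1*-/- bleo replicate 2, and *Hba-a2* after vehicle at -0.16 without *Pear1*-/- vehicle replicate 3.

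The replicate numbers did not pair the libraries: 0 of 18 pairs of the same number had deviations that correlated above 0.1. With the replicate block the members called were 3, 2, 0, 2 and 2 in the 5 comparisons, as without it, and *Hba-a1* in *Pear1*-/- after bleo had an adjusted p of 0.0512.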
